A study of Mus musculus with 9 samples.

Results

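CD8 T cells of the small-intestinal lamina propria, the connective tissue under the gut epithelium, were compared with CD8 T cells of the mesenteric and the peripheral lymph nodes. The comparison used 3 of the 9 samples of the series, 1 for each place. Its members were the genes above the deposited floor of log2 4.32 in at least 1 of these 3 samples, which was 413 of the 770 genes measured. Of these, 311 were above the floor in all 3 samples, 32 only in the lamina propria sample of the 3, and 59 were at the floor in the lamina propria sample and above it in a node.

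The study concerned experimental autoimmune uveitis, an eye inflammation raised by immunizing mice with a retinal peptide, and how it changes when the gut microbiota is depleted. Per the labels' protocols, the mice were WT or Rag2-/- IRBP-/- R161H animals on the B10.RIII background, kept pathogen free, and immunization used 10 ug of the peptide IRBP161-180 in complete Freund's adjuvant. WT mice received ampicillin, metronidazole, neomycin, vancomycin and gentamicin in a sucralose gel, begun 1 week ahead of immunization in a short arm and 4 weeks or more ahead in a long arm. The labels do not say which genotype, antibiotic arm, immunization state, age or number of mice stands behind a sample, or how the cells were separated, so the 3 groups are known only by tissue and subset. Each value below is from 1 sample.

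CD8 T cells that leave the circulation and settle in the gut wall are known for granzymes held ready in granules, for integrins that bind collagen and epithelial cadherin, and for NK-type receptors. CD8 T cells of lymph nodes are mostly naive or recirculating cells, which carry lymph node homing receptors such as CCR7. Cells prepared from the gut wall can carry along material of epithelial and other cells, so transcripts of those cell types are given with the results.

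The values were log2 normalized counts, and the lowest value above the floor differed between samples. It was 5.59 in lamina propria CD8, 4.36 in mesenteric node CD8 and 4.34 in peripheral node CD8. In lamina propria CD8 nearly all low values were whole multiples of 2.41 normalized counts, so that 5.59 stood for 20 counts and the genes above the floor summed to 65192 counts. No counting step is given for the node samples, whose depth is unknown. Intervals given for lamina propria CD8 are exact Poisson 95% intervals of its counts and cover counting error only. Values below 5.59 were raised to it before differences were tested, and the 43 members below it in all 3 samples could not be compared. The node samples were close to each other. Over the 274 genes above 5.59 in both, the median absolute difference between mesenteric and peripheral CD8 was 0.19 log2 units, the 90th percentile was 0.53, and 4 genes (Cd74, H2-Aa, Il4ra and Isg15) differed by 1 unit or more.

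The 3 samples carried the lineage genes of their labels, with Cd8a and Cd8b1 above the floor and Cd4 at it. Cd8a, which encodes CD8 alpha, was at 9.62 in lamina propria CD8, 10.26 in mesenteric CD8 and 10.09 in peripheral CD8. Cd8b1, the beta chain, was at 8.87, 9.91 and 9.65 in the same order. Both co-receptor chains were at lower values in the lamina propria sample than in either node. In the CD4 nodes both chains were at the floor, so the CD4 pair added no spread to their test. It was still counted in the test, which narrows the standard errors given next. For Cd8b1 the difference from the node mean was -0.91 ± 0.14 (SE; adjusted p = 0.0479, limma), and for Cd8a it was -0.56 ± 0.10 (adjusted p = 0.058, limma), which did not pass. The CD3 chains, the signalling part of the T cell receptor complex, were also at lower values in the lamina propria. Their mean (Cd3d, Cd3e and Cd3g) was 10.46 in lamina propria CD8, 10.81 in mesenteric CD8 and 10.85 in peripheral CD8. The mean of 14 housekeeping genes was 9.19, 9.17 and 9.21. With values set relative to the CD3 chains, Cd8b1 differed by -0.54 (adjusted p = 0.128, limma). In bulk samples such as these, fewer cells of a type and less RNA per cell cannot be told apart.

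Across the table, 86 of 360 genes tested passed an adjusted p of 0.05 in limma (23.9%), of which 47 were higher in lamina propria CD8 (13.1% of those tested) and 39 were lower (10.8%). The tested genes included 350 members. The spread in this test was the difference between the mesenteric and the peripheral sample, in CD4 and in CD8 cells, and the single lamina propria CD8 sample was assumed to vary as the nodes did. A gene at or below 5.59 in a node pair had no such spread, so its p-value does not measure one. The calls were therefore divided by how many of the 4 node samples were above 5.59. Among the 248 genes above it in all 4, 39 were called (15.7%), of which 3 were higher (1.21%) and 36 lower (14.5%). Among the 79 genes above it in some of them, 13 were higher and 3 lower, and among the 33 genes above it in none, 31 were higher and 0 lower. For the last group only values and bounds are given, and p-values of the second group rest on fewer node samples than those of the first. The direction of the calls also followed the scale: relative to the CD3 chains, 84 genes were higher and 9 lower, so that the share of higher calls went from 54.7% to 90.3%, and the median difference of all tested genes went from -0.11 to 0.27. Relative to housekeeping genes 44 were higher and 73 lower (37.6% higher). When 1 node pair was left out of an additive fit, 8 genes were called with the mesenteric pair missing and 1 with the peripheral pair missing. By size alone, 31 of 350 genes were at least 1 log2 unit above both nodes (8.86%) and 10 at least 1 unit below both (2.86%). By the same rule 48 were above and 2 below relative to the CD3 chains, and 28 and 14 relative to housekeeping genes.

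**Figure D1:**
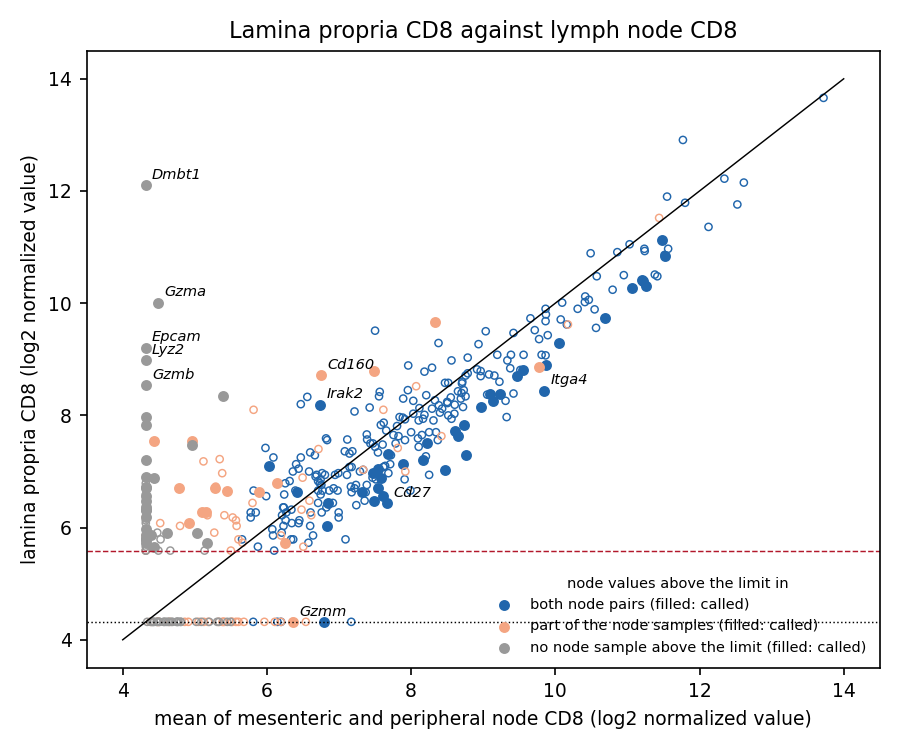
Each point is 1 of the 413 members, with its mean over the 2 node CD8 samples on the horizontal axis and its lamina propria CD8 value on the vertical axis (both log2 normalized values). Filled points passed an adjusted p of 0.05, colours give in how many of the 4 node samples the gene was above the limit of 5.59 (dashed line), the dotted line is the floor of 4.32 and the diagonal marks equal values. Dmbt1 at 12.11 and Gzma at 10.01 stand far above the diagonal at the left edge, while the filled blue points, with Itga4 among them, lie mostly below it.

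The granule genes divided into granzymes that were higher in the lamina propria sample and a granzyme that was lower. Gzma, Gzmb and Gzmk encode serine proteases that are delivered into target cells, and Gzmm a granzyme known mainly from innate and innate-like lymphocytes. The 250 bases upstream of the 4 start sites are shown because these genes moved apart from each other between the tissues. They are RefSeq sequences of GRCm38.p6, read 5′ to 3′ on the gene's strand, at chr13:113100982-113101231 (minus strand) for Gzma, chr14:56262335-56262584 (minus) for Gzmb, chr13:113180966-113181215 (minus) for Gzmk and chr10:79688770-79689019 (plus) for Gzmm, which had 2 windows in the table, of which the first is shown. Capitals mark matches on either strand to the Runx core TGTGGT and the T-box core GGTGTG.
Gzma: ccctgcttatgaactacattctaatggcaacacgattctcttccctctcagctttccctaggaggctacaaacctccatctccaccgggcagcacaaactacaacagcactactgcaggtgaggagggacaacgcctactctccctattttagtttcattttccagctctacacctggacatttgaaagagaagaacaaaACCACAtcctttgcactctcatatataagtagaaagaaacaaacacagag
Gzmb: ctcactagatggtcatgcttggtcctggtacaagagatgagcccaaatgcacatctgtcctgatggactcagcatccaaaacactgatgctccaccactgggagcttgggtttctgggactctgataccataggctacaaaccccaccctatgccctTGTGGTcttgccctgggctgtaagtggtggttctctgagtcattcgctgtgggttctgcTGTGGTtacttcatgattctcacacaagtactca
Gzmk: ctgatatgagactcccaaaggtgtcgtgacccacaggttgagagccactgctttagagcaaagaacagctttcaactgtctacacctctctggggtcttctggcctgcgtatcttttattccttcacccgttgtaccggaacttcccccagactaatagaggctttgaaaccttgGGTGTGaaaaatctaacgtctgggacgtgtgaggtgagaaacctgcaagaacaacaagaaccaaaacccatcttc
Gzmm: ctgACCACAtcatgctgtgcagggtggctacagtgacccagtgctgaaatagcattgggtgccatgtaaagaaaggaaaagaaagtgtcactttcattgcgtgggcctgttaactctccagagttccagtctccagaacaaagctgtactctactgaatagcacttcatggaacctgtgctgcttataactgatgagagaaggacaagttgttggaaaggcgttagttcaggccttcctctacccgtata
Among 27025 such windows, 14.2% held the Runx letters and 16.2% the T-box letters. Gzmb held the Runx letters at -93 to -88 and at -34 to -29, counted from the start site, and both matches were on its own strand. Gzma held them at -50 to -45 and Gzmm at -247 to -242, on the opposite strand. Gzmk held the T-box letters at -75 to -70. A match of letters is not a binding site.

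Gzma was at 10.01 in lamina propria CD8 (interval 9.87 to 10.15), 4.67 in mesenteric CD8 and at the floor in peripheral CD8. Gzmb was at 8.54 (8.30 to 8.77) and at the floor in both nodes. Gzmk was at 6.59 (6.11 to 7.04) and at the floor in both nodes. These 3 granzymes were thus measured in the lamina propria and were at or close to the floor in the nodes. With each node sample at its own limit, Gzma was at least 45.4-fold higher in lamina propria CD8 than in the node mean, Gzmb at least 18.3-fold and Gzmk at least 4.72-fold. Gzmm ran the other way, at the floor in lamina propria CD8 and at 6.36 in both nodes, which makes it at least 1.71-fold lower. Its call had no node spread behind it and was lost on the CD3 chain scale. Intraepithelial CD8, the gut CD8 sample from within the epithelium, was at 14.67 for Gzma, 12.25 for Gzmb and 9.46 for Gzmk, above the lamina propria in each, and at the floor for Gzmm. In lamina propria CD4, Gzma was at 9.64 and Gzmb at 8.35, close to their values in lamina propria CD8, and Gzma was at the floor in both node CD4 samples.

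The pore-forming and other granule genes did not follow Gzma and Gzmb. Prf1, which encodes perforin, was at 6.48 in lamina propria CD8 (5.97 to 6.94), 7.43 in mesenteric CD8 and 7.28 in peripheral CD8. Ctsw, a cathepsin of cytotoxic cells, was at 10.24, 10.81 and 10.78. Both were below the 2 nodes and neither passed (adjusted p = 0.156 and 0.0663, limma). Tnfsf10, the death ligand TRAIL, was at 6.63, 6.41 and 6.43, and was called (difference 0.21 ± 0.02 SE, adjusted p = 0.0231, limma), although both node values lay within the lamina propria counting interval of 6.15 to 7.07. Of the 8 granule and death ligand genes, 6 were tested, and 3 were higher, 1 was lower and 2 did not pass, with a median difference of -0.17 against -0.11 over all genes tested. Over all genes tested 13.1% were called higher and 10.8% lower. Gzma and Gzmb had no node sample above 5.59, a group in which 93.9% were called higher.

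**Figure D2:**
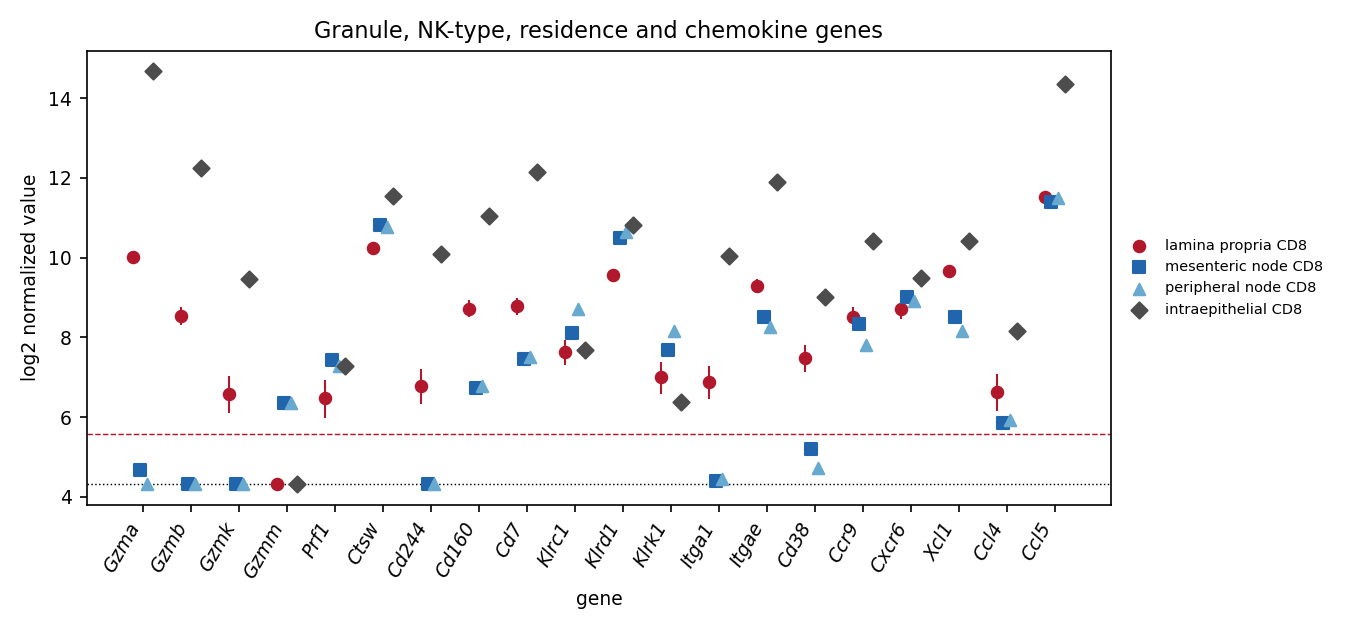
Log2 normalized values of 20 granule, NK-type, residence and chemokine genes in lamina propria CD8 (circles, with 95% counting intervals), mesenteric and peripheral node CD8 and intraepithelial CD8. The dotted line is the floor of 4.32 and the dashed line the lamina propria limit of 5.59. For Gzma, Cd160, Cd7 and Itga1 the lamina propria value lies between the nodes below and intraepithelial CD8 above, while for Ccl5 it lies beside the nodes.

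Among NK-type receptors, CD160 and CD7 were higher in the lamina propria sample and the lectin-type receptors were at lower values. Cd160, a receptor of gut cytotoxic lymphocytes that binds HVEM, was at 8.72 in lamina propria CD8, 6.72 in mesenteric CD8 and 6.78 in peripheral CD8, a difference of 1.97 ± 0.04 (SE; adjusted p = 0.000857, limma). Cd7, an immunoglobulin-family protein of T and NK cells, was at 8.79, 7.45 and 7.52, a difference of 1.31 ± 0.05 (SE; adjusted p = 0.00382, limma). Both genes were below 5.59 in the node CD4 samples, so their spread comes from the CD8 pair alone. Cd244, the SLAM-family receptor 2B4, was at 6.79 (6.34 to 7.21) and at the floor in both nodes, at least 5.43-fold higher. All 3 were higher still in intraepithelial CD8, at 11.04 for Cd160, 12.15 for Cd7 and 10.09 for Cd244.

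The lectin-type receptors form dimers that bind non-classical class I molecules or stress ligands. Klrd1, the CD94 chain shared by the NKG2 dimers, was at 9.56 in lamina propria CD8, 10.49 in mesenteric CD8 and 10.64 in peripheral CD8. Klrc1, the inhibitory partner NKG2A, was at 7.63, 8.12 and 8.72, and Klrk1, the activating receptor NKG2D, was at 7.0, 7.68 and 8.16. In each of them the lamina propria value was the lowest of the 3, and none passed the test, with adjusted p of 0.164, 0.188 and 0.108 (limma). Klrc2, the activating partner NKG2C, was at the floor in lamina propria CD8 and at 6.20 and 6.88 in the nodes (adjusted p = 0.172, limma). Of the 23 NK-type genes measured, 13 were at the floor in all 3 samples. Of the 6 tested, 2 were higher and 4 did not pass, with a median difference of -0.86. Over all genes tested 13.1% were called higher and the median difference was -0.11. Of the 6, 1 was above the limit in all 4 node samples. Both calls, Cd160 and Cd7, had part of the node samples above it, a group in which 16.5% were called higher.

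Residence and gut homing genes did not move as a block. Itga1, the collagen-binding integrin chain CD49a, was at 6.89 in lamina propria CD8 (6.45 to 7.29), 4.40 in mesenteric CD8 and 4.46 in peripheral CD8, 5.50-fold higher than the node mean. Cd38, an NAD-consuming ectoenzyme, was at 7.48 (7.13 to 7.81), 5.21 and 4.72, 5.72-fold higher. Both lie in the group with no node sample above 5.59, so only these values are given. Itgae, the CD103 chain that binds epithelial cadherin, was at 9.29, 8.50 and 8.26, above both nodes, and did not pass (difference 0.91 ± 0.38 SE, adjusted p = 0.199, limma). Rora, a nuclear receptor of tissue lymphocytes, was at 8.10, 5.54 and 6.09 and missed the threshold as deposited (difference 2.26 ± 0.37 SE, adjusted p = 0.0506, limma), while it passed on the other 3 scales.

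Other homing genes were close to the nodes or lower. Ccr9, which draws T cells toward CCL25 of the small bowel, was at 8.52 (8.28 to 8.75), 8.33 and 7.81, so its counting interval included the mesenteric value. Cxcr6, the receptor for CXCL16, was at 8.70 (8.47 to 8.91), 9.02 and 8.91. Cd69, which holds cells in tissue by blocking S1PR1, was at 11.36, 12.28 and 11.97, the lowest in the lamina propria (adjusted p = 0.0918, limma). Itga4, the chain that pairs with beta 7 for gut homing or with beta 1 for VCAM-1, was lower, at 8.44 (8.19 to 8.68) against 9.81 and 9.89 (difference -1.41 ± 0.12 SE, adjusted p = 0.0167, limma). Itgb1, its beta 1 partner, was at 7.97, 9.11 and 9.54 and did not pass (adjusted p = 0.172, limma). Of 14 tested genes of this list, 3 were higher, 1 was lower and 10 did not pass, with a median difference of 0.33. Over all genes tested 13.1% were called higher and 10.8% lower, with a median difference of -0.11. In 8 of the 15 measured, the values were ordered upward from the nodes through lamina propria to intraepithelial CD8, and in 3 they were ordered downward. Over all 413 members, 55 were ordered upward (13.3%) and 57 downward (13.8%).

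Chemokines of T cells were higher in the lamina propria sample for some members. Xcl1, which attracts cross-presenting dendritic cells, was at 9.66 (9.50 to 9.81) in lamina propria CD8, 8.51 in mesenteric CD8 and 8.15 in peripheral CD8, a difference of 1.33 ± 0.20 (SE; adjusted p = 0.0414, limma). Ccl4, an inflammatory chemokine, was at 6.63 (6.15 to 7.07), 5.85 and 5.94, a difference of 0.74 ± 0.05 (SE; adjusted p = 0.00958, limma). For Ccl4 both CD4 nodes were at the floor, so the CD4 pair added no spread. It was still counted in the test, which narrows this standard error. Ccl3, a close relative of Ccl4, was at 6.97, 6.07 and 4.69 and did not pass as deposited (adjusted p = 0.0768, limma), while it passed on the other 3 scales. Ccl5 was high in all 3 samples, at 11.52, 11.39 and 11.49, and did not separate them. The third call of the list, Ccl9, was at 5.73 (5.06 to 6.33), about 22 counts, at the floor in both nodes and at 6.13 in lamina propria CD4, and its call was lost with median or housekeeping centring. Of 5 tested, 3 were higher and 2 did not pass, while 13.1% of all genes tested were called higher. Among these 5, 0 were above the limit in all 4 node samples. Ccl9 had no node sample above it, a group in which 93.9% were called higher. Xcl1 and Ccl4 had part of the node samples above it, a group in which 16.5% were called higher. Among cytokines, Csf2, which encodes GM-CSF, was at 6.56 (6.06 to 7.01) and at the floor in both nodes, at least 4.63-fold higher. Ifng, which encodes interferon gamma, was at 7.40, 6.84 and 6.59, above both nodes, and did not pass (adjusted p = 0.066, limma).

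Naive-cell and lymph node homing genes were at lower values in the lamina propria sample for 9 of the 10 measured, on the deposited and on the CD3 chain scale. Cd27, a costimulatory receptor kept by naive and central memory cells, was at 6.44 (5.93 to 6.91) in lamina propria CD8, 7.61 in mesenteric CD8 and 7.72 in peripheral CD8, a difference of -1.23 ± 0.08 (SE; adjusted p = 0.00844, limma). Il6ra, the IL-6 receptor chain, was at 6.48 (5.97 to 6.94), 7.52 and 7.45 (adjusted p = 0.0132, limma). Tcf7, the transcription factor TCF-1 of naive and memory cells, was at 10.40 (10.28 to 10.52), 11.23 and 11.20 (adjusted p = 0.0476, limma). The lamina propria values of these 3 lie below both nodes with counting intervals that exclude them. Cmah, an enzyme of sialic acid synthesis, was at 8.81, 9.49 and 9.61, and Itgal, the LFA-1 alpha chain, was at 9.29, 9.97 and 10.14 (adjusted p = 0.0295 and 0.0317, limma). All 10 measured genes of the list were tested, and 0 were higher, 5 were lower and 5 did not pass, with a median difference of -0.79 against -0.30 over the 248 genes above the limit in all 4 node samples. Each of the 10 was among those 248, of which 1.21% were called higher and 14.5% lower. The exception to the lower values was Bcl2, a survival gene, at 7.93, 7.81 and 8.02. Relative to the CD3 chains 2 of the 10 were lower, Cd27 and St6gal1 (adjusted p = 0.0271 and 0.0304, limma).

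A classic homing receptor was among those that did not pass. Ccr7, which brings cells into the T cell zone, was at 10.48 (10.36 to 10.60) in lamina propria CD8, 11.24 in mesenteric CD8 and 11.59 in peripheral CD8 (adjusted p = 0.133, limma). It stayed high in the lamina propria sample and was at 6.69 in intraepithelial CD8. St6gal1, a sialyltransferase, was at 5.79 (5.14 to 6.38), 6.90 and 7.28 (adjusted p = 0.0662, limma). Il7r, the IL-7 receptor chain, was at 9.89, 10.48 and 10.61 (adjusted p = 0.0662, limma). In 8 of the 10 genes the values were ordered downward from the nodes through lamina propria to intraepithelial CD8, against the 13.8% of all members given above.

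**Figure D3:**
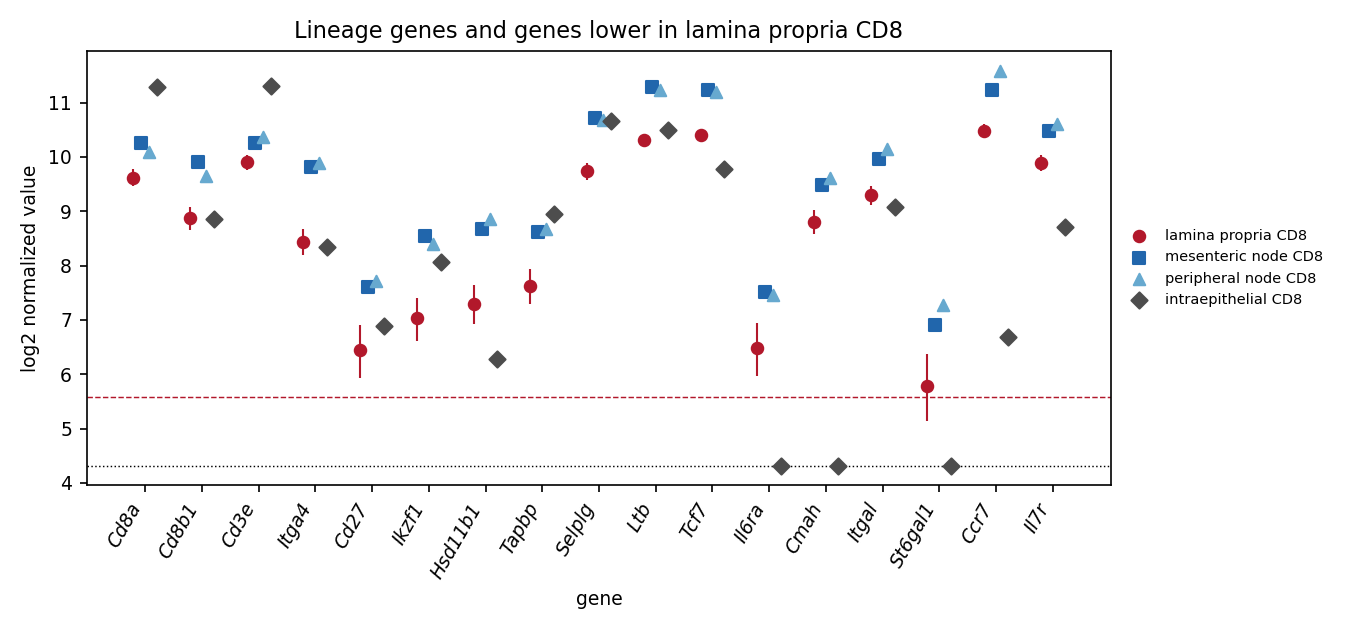
Log2 normalized values of 17 lineage, naive-cell and signalling genes in lamina propria CD8 (circles, with 95% counting intervals), mesenteric and peripheral node CD8 and intraepithelial CD8, with the floor (dotted) and the lamina propria limit (dashed). Genes beside the lineage genes were drawn because they were at lower values in lamina propria CD8, so the circle lies below both node symbols throughout. Bcl2, the naive-cell gene that lay between the nodes, is not drawn. Ccr7, at 10.48 in the lamina propria, is far lower in intraepithelial CD8.

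Other lower calls were genes of signalling, adhesion, steroid metabolism and transcription. Ikzf1, the lymphoid transcription factor Ikaros, was at 7.03 (6.61 to 7.41) in lamina propria CD8, 8.54 in mesenteric CD8 and 8.40 in peripheral CD8, a difference of -1.44 ± 0.18 (SE; adjusted p = 0.0322, limma). Hsd11b1, an enzyme that activates glucocorticoids, was at 7.29 (6.92 to 7.64), 8.68 and 8.85, a difference of -1.48 ± 0.15 (SE; adjusted p = 0.022, limma). Pik3cg, the gamma catalytic subunit of phosphoinositide 3-kinase, was at the floor in the lamina propria and at 6.70 and 6.88 in the nodes, at least 2.30-fold lower (adjusted p = 0.0189, limma). Selplg, the selectin ligand PSGL-1, was at 9.74, 10.72 and 10.67 (adjusted p = 0.00536, limma), and Ltb, which encodes lymphotoxin beta, was at 10.31, 11.28 and 11.24 (adjusted p = 0.0439, limma). Tapbp, the tapasin that loads peptides onto class I, was at 7.63, 8.62 and 8.68 (adjusted p = 0.00598, limma).

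These 6 genes with Cd27 and Itga4 were the 8 lower calls, among genes above the limit in all 4 node samples, that held on all 4 scales tried (as deposited, median, housekeeping genes and CD3 chains). The remaining lower calls depended on the scale, and 8 of the 39 lower calls held relative to the CD3 chains. Lck, the kinase bound to the CD8 and CD4 tails, shows this. It was at 10.42, 11.19 and 11.22 (difference -0.79 ± 0.06 SE, adjusted p = 0.0135, limma) and relative to the CD3 chains differed by -0.41 (adjusted p = 0.116, limma). Of the 14 tested genes of the T cell receptor complex and its signalling, 2 (Cd2 and Lck) were lower and 12 did not pass, with a median difference of -0.43. Each of the 14 was above the limit in all 4 node samples, a group in which 14.5% of genes were called lower. All 14 differences were below 0 as deposited. Of the 11 genes other than Cd3d, Cd3e and Cd3g, which define the CD3 chain scale, 6 were below 0 on that scale. Of the cytokine receptor list, 3 of 19 tested were lower, Il2rg, Jak1 and Il18r1, all among its 16 genes above the limit in all 4 node samples. The counts of both lists are close to the 14.5% of that group. The 3 lower calls among genes above the limit in part of the node samples were Gzmm, Cd8b1 and Bid. Gzmm was equal in the CD8 nodes and at the floor in the CD4 nodes, so its call measures no spread. Bid, a pro-apoptotic BCL-2 relative, was at 5.73 on 22 counts in lamina propria CD8. Its counting interval (5.06 to 6.33) held both node values of 6.30 and 6.19.

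The 3 higher calls among genes above the limit in all 4 node samples were Irak2, Lamp2 and Tnfsf10. Irak2, a kinase of interleukin-1 and Toll-like receptor signalling, was at 8.19 (7.92 to 8.45) in lamina propria CD8, 6.57 in mesenteric CD8 and 6.91 in peripheral CD8, a difference of 1.45 ± 0.19 (SE; adjusted p = 0.0336, limma). Lamp2, a lysosomal membrane protein, was at 7.10 (6.70 to 7.48), 6.04 and 6.01, a difference of 1.08 ± 0.14 (SE; adjusted p = 0.0336, limma). Irak2 and Lamp2 held on all 4 scales, and Tnfsf10 only as deposited. Irak2 and Lamp2 were also at higher values in lamina propria CD4 (8.58 and 8.0) than in node CD4. Casp1, the inflammasome protease, was at 7.54 (7.20 to 7.86), 5.10 and 4.82, 5.98-fold higher, and was at 8.35 in intraepithelial CD8. Irf4, a transcription factor induced by T cell receptor signals, was at 6.27 (5.72 to 6.77), 5.05 and 5.15.

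Of 18 tested interferon-induced genes, 2 were higher and 2 lower, shares close to the 13.1% and 10.8% over all genes tested. Ddx58, the RNA sensor RIG-I, was lower at 7.83 against 8.83 and 8.64 (adjusted p = 0.0317, limma), and Ifi35 at 7.20 against 8.23 and 8.11 (adjusted p = 0.0325, limma). The higher calls were Oasl1, at 6.08 against 5.38 and 4.46, and Ifitm2, which had no node sample above the limit. Ifit3 was at the floor in the lamina propria and at 7.62 and 6.72 in the nodes, and did not pass (adjusted p = 0.186, limma). All 13 tested class I genes were above the limit in all 4 node samples, where 1.21% of genes were called higher and 14.5% lower. Of the 13, 0 were higher and 3 lower. These were Tapbp, H2-K1, a classical class I heavy chain at 11.13 against 11.46 and 11.49, and Nlrc5, the transactivator of class I genes, at 8.15 against 8.98 and 8.96 (adjusted p = 0.00523, limma). On the CD3 chain scale 8 of the 13 class I differences were above 0 and 1, that of Tapbp, was called lower. Eomes, the T-box factor of effector and memory CD8 cells, was at 7.03 (6.61 to 7.41), 7.22 and 7.45, near the nodes, and at the floor in intraepithelial CD8.

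Transcripts of epithelial cells were present in the lamina propria sample and one of them gave its largest difference. Dmbt1, a secreted mucosal scavenger protein of the epithelium, was at 12.11 and the fifth highest gene of the sample, with both nodes at the floor, at least 217-fold higher. Epcam, the epithelial adhesion molecule, was at 9.21, at least 29.0-fold higher. Cdh1, the epithelial cadherin, was at 8.35 against 5.41 and 5.38, 7.75-fold higher. Ceacam1, at 7.83, and Ccl25, the gut epithelial chemokine, at 6.91, were at the floor in both nodes, at least 11.2-fold and 5.90-fold higher. These 5 were the members of the 15 epithelial genes measured that were above the floor in lamina propria CD8, and the other 10 were at the floor in all 3 samples. Summed on the linear scale, the list gave 5686.8 normalized counts in lamina propria CD8, 42.5 in mesenteric CD8 and 41.6 in peripheral CD8. It gave 7337.5 in lamina propria CD4 and 572.8 in intraepithelial CD8. The node sums were Cdh1 alone, and Cdh1 was at 8.95 in intraepithelial CD8, above its lamina propria value. Dmbt1, Ceacam1 and Ccl25 were at the floor in intraepithelial CD8. Without Cdh1 the list summed to 5360.5 in lamina propria CD8, 7006.7 in lamina propria CD4 and 78.2 in intraepithelial CD8, and every gene of it was at the floor in the CD8 nodes.

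Other non-T-cell transcripts were fewer. Lyz2, the lysozyme of macrophages and of Paneth cells, was at 8.98 with both nodes at the floor, at least 24.8-fold higher, and 25 of the 27 myeloid genes measured were at the floor in all 3 samples. The other was Cd68, a macrophage lysosomal protein, at the floor in lamina propria CD8 and at 4.76 and 4.62 in the nodes. The summed myeloid list, 505.0 normalized counts against 27.1 and 24.6, was therefore Lyz2 alone in the lamina propria and Cd68 alone in the nodes. Of the stromal and endothelial genes 20 of 23 were at the floor in all 3, of the B and plasma cell genes 13 of 15, and of the mast cell, basophil and eosinophil genes 8 of 8. Class II genes matched by name and above the floor in any of the 3 samples numbered 6. Of these, 5 were graded from lamina propria through mesenteric to peripheral CD8. H2-DMb2 was above the floor only in mesenteric CD8, at 4.93. Cd74, the invariant chain, was at 9.51, 8.33 and 6.67, H2-Aa, a class II alpha chain, at 8.33, 7.45 and 5.67, and H2-Ab1 at 7.18, 5.92 and the floor. None of these 3 passed (adjusted p = 0.261, 0.368 and 0.179, limma), and the deposited node values differed from each other by more than 1 unit in each. H2-Eb1, at 5.91 on 25 counts against 4.90 and the floor, was called with no node spread above the limit. The class II list summed to 1405.1, 696.9 and 173.6. H2-Dma, a peptide-exchange chain, was on the list under another spelling and was left out of these class II counts and sums. It went against the gradient, lowest in lamina propria CD8 at 6.73 against 7.27 and 7.06, and did not pass.

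**Figure D4:**
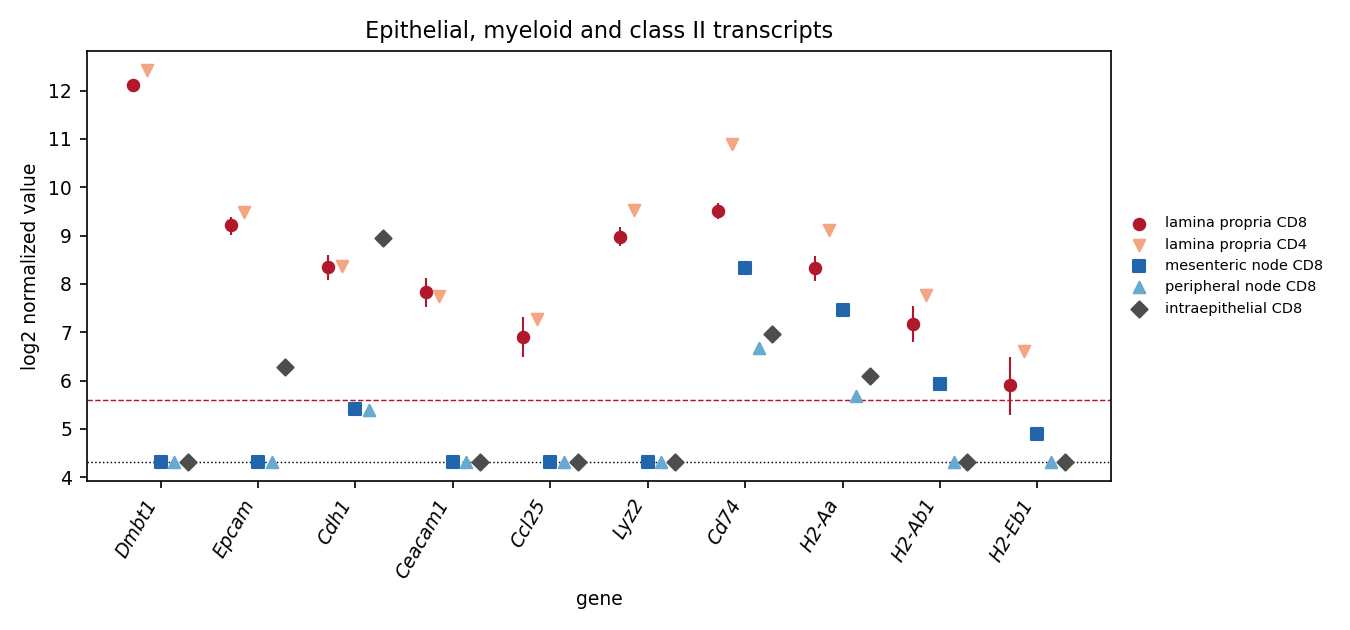
Log2 normalized values of epithelial (Dmbt1 to Ccl25), myeloid (Lyz2) and class II (Cd74 to H2-Eb1) transcripts in both lamina propria samples, the node CD8 samples and intraepithelial CD8, with 95% counting intervals for lamina propria CD8, the floor (dotted) and its limit (dashed). Both lamina propria samples lie above the nodes for every gene drawn, and the class II genes drawn step down from lamina propria through mesenteric to peripheral CD8.

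Several higher genes went with these transcripts in their pattern over the 9 samples. Of the 32 members above the floor in lamina propria CD8 with both nodes at the floor, 30 were also above it in lamina propria CD4, as were 348 of the 354 genes above the floor in lamina propria CD8 (98.3%). With 5.59 as the limit in lamina propria CD4 too, these became 26 of 32 and 325 of 354 (91.8%). In intraepithelial CD8, 13 of them were above the floor, among them Gzmb, Gzmk, Cd244, Csf2 and Lgals3, and 19 were not. A set of 10 genes was above the floor in both lamina propria samples and at the floor in the other 7, and it held Dmbt1, Ceacam1, Ccl25, Ccl9, Cd63 and H2-Q2. Cd63, a tetraspanin of late endosomes, was at 6.70 in lamina propria CD8 and 6.98 in lamina propria CD4. H2-Q2, a non-classical class I gene whose probe signal may not be separate from that of its close relatives, was at 6.73 and 6.84. Ifitm2, an interferon-induced membrane protein, was at 7.20 and 7.78 and at the floor in the CD8 nodes and intraepithelial CD8. Lgals3, which encodes galectin-3 and is made by epithelial cells, macrophages and activated T cells, was at 7.98 in lamina propria CD8 and at 7.99 in intraepithelial CD8, at least 12.4-fold above the nodes. The part of carried epithelial or myeloid RNA in these genes was not tested. Without the genes of the epithelial, stromal, myeloid, class II, B cell and mast cell lists, 79 of 345 genes were called, 40 higher and 39 lower.

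For some genes the lamina propria differed from the nodes otherwise in CD8 than in CD4 cells. The difference of the 2 differences, CD8 minus CD4, passed for 41 of 360 genes (11.4%), and for 6 of the 248 genes above the limit in all 4 node samples (2.42%). Of the 41, 31 were below 0 and 10 above it, and with median centring 7 were below and 6 above. Those above 0 included Cd160 (0.94, adjusted p = 0.0172, limma) and Ccl4 (0.74, adjusted p = 0.0311, limma). None of the 10 was above the limit in all 4 node samples. For Cd160 the sign rests on raising low values to the limit. In CD4 cells it was at 6.62 in the lamina propria and at the floor in both nodes. Raising the nodes made this difference 1.03, against 1.97 in CD8 cells. As deposited the CD4 difference was the larger, so the call shows no larger Cd160 difference in CD8 cells. Ccl4 was at 4.34 in lamina propria CD4 and at the floor in both CD4 nodes. Raising these values set its CD4 difference to 0. The value of 0.74 is therefore its CD8 difference again, and the call does not compare the subsets. Cxcr6 was close to the nodes in CD8 cells (8.70 against 9.02 and 8.91), while in CD4 cells it was at 9.34 in the lamina propria and 5.83 and 6.12 in the nodes. Il18r1, the IL-18 receptor chain, was at 8.25 in lamina propria CD8 against 9.02 and 9.24, and at 9.36 in lamina propria CD4 against 8.12 and 8.25. Icam1, the ligand of LFA-1, was at 8.45 against 8.04 and 7.87 in CD8 cells and at 8.44 against 6.58 and 6.48 in CD4 cells. The CD8 minus CD4 difference was -3.63 ± 0.24 for Cxcr6, -2.06 ± 0.20 for Il18r1 and -1.42 ± 0.16 for Icam1 (SE; adjusted p = 0.0172, 0.0323 and 0.0438, limma). When only genes above the limit in all 4 node samples were fitted, the call of Icam1 was lost (adjusted p = 0.115, limma). Il22, a cytokine that acts on epithelium, was at 6.18 (5.61 to 6.69) in lamina propria CD8, with both CD8 nodes at the floor, and at 11.36 in lamina propria CD4.

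**Figure D5:**
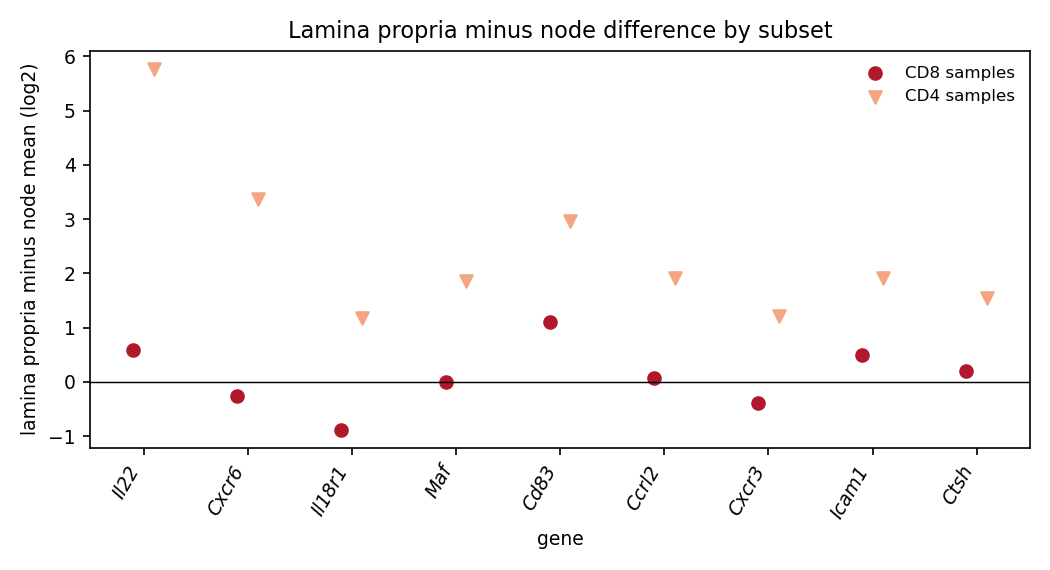
Lamina propria minus the mean of the 2 nodes (log2 units, values raised to 5.59), for CD8 samples (circles) and CD4 samples (triangles), for 9 genes among those with the largest called difference between the subsets. The CD4 symbol lies above the CD8 symbol for all 9, and for Cxcr6, Il18r1 and Cxcr3 the CD8 symbol lies below 0.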

How the data were processed

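RNA isolated with the RNeasy kit was measured with capture probes carrying a 3' biotin and barcoded reporter probes, per the labels' protocols. The deposited table held the authors' log2 normalized values with 2 decimals and a floor of 4.32, the log2 of 20. Which instrument read the probes, how samples were scaled and how the floor was set is not stated in those sources. Of the gene names, 754 matched a RefSeq symbol of GRCm38.p6, 8 a synonym and 8 neither.

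The counting step of lamina propria CD8 was the value that made most linear values up to 150 whole (97% within 0.005 log2, against a median of 16.9% for other steps). Values below 5.59 were raised to it. The test was limma 3.58.1 (R 4.3.3; lmFit, eBayes with trend) on 6 samples, both lamina propria and the 4 node samples, with a mean for each tissue and subset, 2 residual and 0.663 prior degrees of freedom. Tested genes reached 5.59 in 2 or more of the 6 samples and were not housekeeping genes, and p-values were two-sided and adjusted by Benjamini-Hochberg at 0.05. The script was first tested on simulated data. Of the 413 members, 350 were tested, and 63 were not (21 housekeeping genes, 18 that reached 5.59 in 1 of the 6 samples, among them Cd244 and Gzmk, and 24 in none). Tables and intervals used Python 3.11.15, numpy 2.4.6, pandas 2.3.3 and scipy 1.17.1.

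The members and the 23 gene lists were chosen with earlier results of these data known. Named genes were the lineage genes, the 15 largest called differences in each direction outside the lists of other cell types, up to 6 called and 3 uncalled members of each list, epithelial genes above the floor, and up to 10 genes called for the difference between subsets. The text gives those its groups need, and some genes are not reported here. Bcl2, Ccr9, Cd244, Cd3d, Cd3e, Cd3g, Cd68, Cd69, Eomes, Gzmk, H2-DMb2, H2-Dma, Il4ra, Klrc1 and Lamp2 fell outside this rule and were chosen after their values were seen, as were the promoters and motifs. Nothing in the labels gives separate animals behind a sample. Alternatives were another floor, filter, scale or model and leaving out a node pair.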

Additional observations from a re-analysis of the deposited data

Results flagged for a closer look

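The 9 genes below were among those with the largest called CD8 minus CD4 difference of the lamina propria minus node difference, tested in limma as described above. In all 9 the value was negative, so the signed difference was lower in CD8 than in CD4 cells. For Cxcr6, Il18r1 and Cxcr3 the CD8 difference was negative and the CD4 difference positive. Maf was at the floor in the CD8 samples compared, so its CD8 difference was set by raising values to the limit. Over all 41 genes called, 31 values were negative and 10 positive.

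For Cxcr6 (-3.63), Il18r1 (-2.06) and Icam1 (-1.42) all 4 node samples were above the limit of 5.59, so the test rests on both node pairs. For Maf (-1.86), Cd83 (-1.86) and Cxcr3 (-1.60) part of the node samples were above it. Maf, a transcription factor of helper cells, was at the floor in all 3 CD8 samples, and at 7.58 in lamina propria CD4 against 5.85 and 4.78 in its nodes. Cd83, an activation molecule, was at 6.70 in lamina propria CD8 against 5.23 and 4.34, and at 9.81 in lamina propria CD4 against 6.94 and 6.74. Cxcr3, a receptor for interferon-induced chemokines, was at 7.42 against 7.90 and 7.73 in CD8 cells, and at 6.89 against 5.77 and 5.43 in CD4 cells.

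For Il22 (-5.18), Ccrl2 (-1.84) and Ctsh (-1.34) no node sample was above the limit, so these are values whose p-values measure no spread. Ccrl2, an atypical chemokine receptor, was at 5.66 in lamina propria CD8 and 7.50 in lamina propria CD4. Ctsh, the protease cathepsin H, was at 5.79 and 7.13. Summed epithelial transcripts were also higher in lamina propria CD4 (7337.5) than in lamina propria CD8 (5686.8), as were class II transcripts (2997.7 and 1405.1), and their part in these differences was not tested.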

How the results depend on the processing

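With 1 sample per group and a floor, the number of samples and the limit of 5.59 set the precision. At 20 counts the counting interval runs from 4.88 to 6.22, so lower genes have no measured order. No paired analysis was possible because the labels number no replicates, so no samples share a number across groups.

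The 86 calls of lamina propria CD8 against the nodes became 43 (4 higher, 39 lower) when only genes above the limit in all 4 node samples were fitted, an alternative chosen after seeing the data. Leaving out the mesenteric node pair gave 8, and leaving out the peripheral pair gave 1, where 4 samples remain in an additive fit. The other alternatives gave between 68 and 124 calls. With the CD3 chain scale, also chosen after seeing the data, the call count was 93. Median centring gave 45 higher and 53 lower (45.9% higher), and the additive model gave 54 and 70 with 6 samples (43.5% higher). Of the calls, 81 had a lamina propria counting interval that excluded both node values.

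The 41 genes called for the difference between subsets became 24 with the deposited floor kept, 26 at the highest limit of 6.30, 77 with genes above the limit in at least 1 of 6 samples, 13 with median centring, 16 with housekeeping centring and 2 when only genes above the limit in all 4 node samples were fitted. The 41 genes at least 1 log2 unit outside both nodes became 9 at 2 log2 units, 77 with the deposited floor kept and 26 at the highest limit. The cause of these shifts was not tested.

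Some named genes changed sign. In the additive models, which give CD4 and CD8 1 shared lamina propria difference, Cxcr6 was at 1.55 with 6 or 8 samples, 1.5 without the mesenteric and 1.59 without the peripheral pair. Cxcr3 was at 0.41, 0.49 and 0.32, Il18r1 at 0.15, 0.06 and 0.23 in the same order, and Klrk1 at 0.10 with 6 or 8 samples and 0.21 without the peripheral pair. Il4ra was at -0.25 without the mesenteric pair, and Bcl2 at -0.04 with housekeeping centring. Relative to the CD3 chains Cxcr6 was at 0.11, Cd3g at 0.11, Eomes at 0.07 and H2-K1 at 0.03.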
